A study of Mus musculus with 549 samples.

Results

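T cell and natural killer (NK) cell genes are a set of 36 transcripts that mark 2 related classes of lymphocyte. They were chosen as a list of symbols, by a rule that uses no measured value, though with earlier results of these data known. All 36 were found among the 23385 named genes of the tables. Their levels come from 3' end libraries of tibial cartilage, of cortical and cancellous bone of the metaphysis (after removal of the marrow) and of inguinal lymph nodes. The animals were C57BL/6J mice, all male. For pretreatment they were given PTH (1-34), the active fragment of parathyroid hormone and an anabolic drug for bone, or saline for 8 weeks from 18 weeks of age. Some were then sampled at 26 weeks of age without loading (the PTH and vehicle groups before loading). In the others the left tibia was compressed cyclically at a peak of 9 N, 5 days a week, for 1 week (27 weeks of age) or 2 weeks (28 weeks of age), and the right limb was the unloaded contralateral control. During loading the mice were given saline or alendronate, an osteoclast inhibitor of the bisphosphonate class. This gave vehicle mice (saline in both phases), PTH mice (PTH, then saline), alendronate mice (saline, then alendronate) and PTH-alendronate mice (PTH, then alendronate). No group carries a gene deletion or transgene, and samples were not pooled. For lymph node, loaded and contralateral stand for the node of the left and right side.

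T cells recognise antigen through the T cell receptor, whose signal is carried into the cell by the CD3 chains and relayed by the kinases Lck and Zap70 and the adaptor Lat. Helper T cells carry Cd4 and help other immune cells, cytotoxic T cells carry Cd8 and kill infected cells, and regulatory T cells are set apart by the transcription factor Foxp3. NK cells kill without a rearranged receptor, using the perforin and granzymes that cytotoxic T cells also use. Lymph nodes are packed with T cells, whereas healthy cartilage holds no lymphocytes of its own and bone holds them mainly in marrow and vessels.

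Of 505 libraries with values, 477 held at least 100000 reads and were used (127777 to 3557793 reads), and the 28 shallower ones were left out. Of those used, 10 stood apart from their tissue by the summed level of 13 B cell genes, a list that does not overlap the members. In 8 cartilage libraries the B cell genes summed to 1014 to 3547 CPM (reads of a gene scaled to a common library total) and the T and NK cell genes to 824 to 3037 CPM, against at most 571 and 354 CPM in the other cartilage libraries. The same held for 1 cancellous bone library, from the loaded limb of a vehicle mouse at 1 week, with 1984 CPM of T and NK cell genes. The opposite held for 1 contralateral lymph node of a vehicle mouse at 1 week: its T and NK cell genes summed to 354 CPM and its B cell genes to 549 CPM, while its osteoblast and osteocyte list stood at 23162 CPM. These libraries went against what their labelled tissue showed elsewhere, and results that rest on them are given with and without them. All samples here are bulk tissue, so fewer cells of a type and less RNA per cell cannot be told apart. The skeletal libraries also carried many transcripts of blood cells. In vehicle mice before loading, the summed neutrophil genes had medians of 38199 CPM in cartilage, 22603 in cortical bone and 25082 in cancellous bone. The median was 144 CPM in lymph node, and that of the chondrocyte genes in the same cartilage was 14442 CPM. The source of the T and NK cell transcripts in these tissues was not tested.

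**Figure D1:**
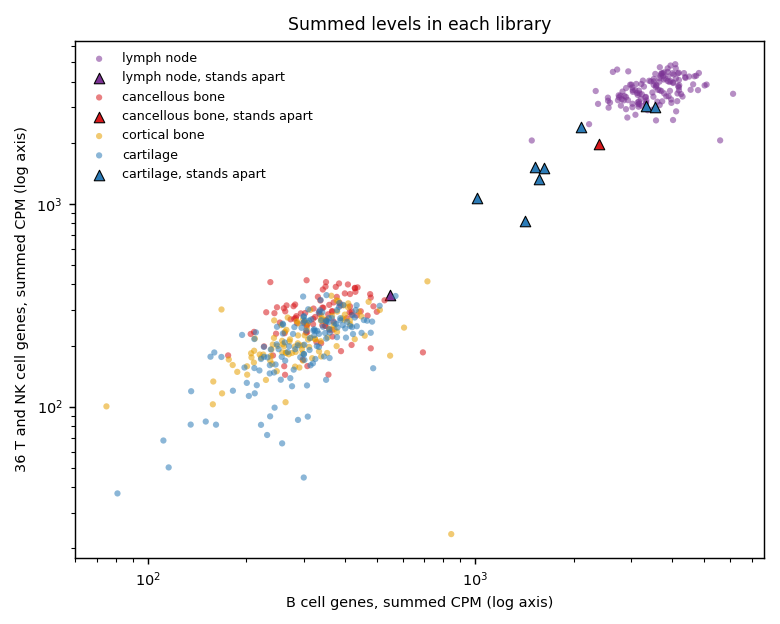
Summed level of the 36 T and NK cell genes (CPM, log axis) in each library of at least 100000 reads, by tissue, with 1 point per library and triangles for the 10 libraries that stand apart. Lymph node libraries lie above 2000 CPM except 1 triangle at 354, and cartilage and bone libraries lie below 421 CPM except the 9 triangles at 824 to 3037.

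The lymph node carried the T and NK cell genes at levels more than 10 times those of the skeletal tissues. Without the libraries that stand apart, the 36 genes summed to 2053 to 4882 CPM (median 3632) in 133 lymph node libraries. The sums were 143 to 420 CPM (median 286) in 93 cancellous bone libraries, 23.5 to 415 CPM (median 212) in 106 cortical bone libraries and 37.3 to 354 CPM (median 219) in 135 cartilage libraries. The lymph node range did not overlap any of the other 3, which overlapped one another. The tables were scaled separately for each tissue, so CPM values are set side by side here without a test. All 36 genes had a median above 0 in lymph node, against 27 in cancellous bone, 30 in cortical bone and 29 in cartilage.

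The gap between node and skeleton differed widely from gene to gene. It was wide for genes of the receptor and of cytotoxic T cells. The median of Cd3d, a CD3 chain, was 252 CPM in lymph node (102 to 719) and 4.4 CPM in cartilage (0 to 22.8), 57.2 times lower. The median of Cd8b1, the beta chain of the CD8 co-receptor, was 195 CPM in lymph node and 0.954 CPM in cartilage, 204 times lower. Icos, a costimulatory receptor of activated and follicular helper T cells, stood at 160 and 1.6 CPM. Bcl11b, a transcription factor that commits precursors to the T lineage, stood at 314 and 3.84 CPM. For these genes the skeletal tissues held medians under 5 CPM, except for Bcl11b in cortical bone (5.8 CPM).

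Other members were less confined to the node. Nkg7, a granule protein of NK and cytotoxic T cells, had a median of 116 CPM in lymph node, 56.1 in cartilage (0.556 to 156), 48.8 in cancellous bone and 35.5 in cortical bone, with 0 libraries at 0 in any of the tissues. Lat, the adaptor that links the activated receptor to downstream signalling and that is also made by megakaryocytes and mast cells, stood at 158 CPM in lymph node, 43.8 in cancellous bone, 23.6 in cortical bone and 13.3 in cartilage. Cd4, which human and rat macrophages also carry, stood at 167, 30.1, 17.4 and 14.8 CPM in the same order. Granzyme A (Gzma), a killing protease, had 11.9 CPM in lymph node and 4.1 in cartilage, and Ncr1, an activating receptor of NK cells, 3.73 and 1.03 CPM. Over the 29 genes with a median above 0 in cartilage, the lymph node median was 2.07 to 204 times the cartilage median (median 23.1). Foxp3, Ctla4 (an inhibitory receptor of regulatory and activated T cells), granzyme B (Gzmb), perforin (Prf1), interferon gamma (Ifng) and Cd40lg (the CD40 ligand of helper T cells) had a median of 0 in all 3 skeletal tissues. Prf1 was at 0 in 126 of 135 cartilage libraries and 24 of 133 lymph node libraries.

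**Figure D2:**
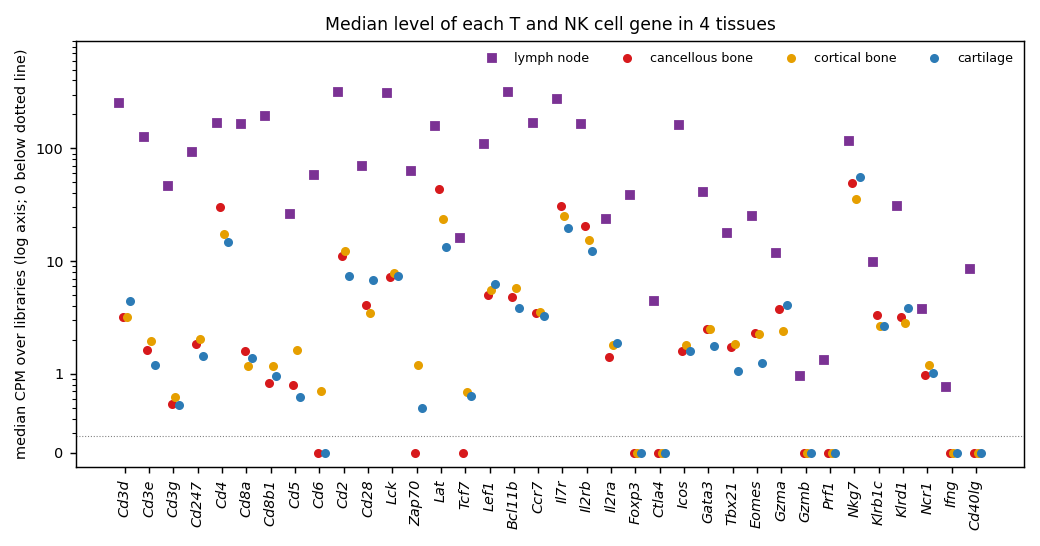
Median level (CPM, log axis) of each of the 36 genes in lymph node, cancellous bone, cortical bone and cartilage, over libraries that do not stand apart. All 36 genes lie highest in lymph node, with Cd8b1 and Icos widely separated from the skeletal tissues and Nkg7 close to them.

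Differences between groups were tested with limma on log2(normalised read count + 1), in 1 fit per tissue and week over all named genes that passed a filter on low values. A change is called where the Benjamini-Hochberg adjusted p over all genes of the fit is under 0.05. Every difference below is on that log2 scale with its standard error, every level quoted as log2 is on the same scale, and adjusted p-values are from limma unless edgeR is named. In cartilage before loading, 21 of the 36 genes passed the filter. Counts of changed genes are over the genes tested. For limma on all libraries of at least 100000 reads, the share of all genes called in the same comparison is given beside them. Counts by edgeR or from fits on fewer libraries come without that share, and the genes tested can differ there.

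In unloaded cartilage 3 of the 21 tested members were lower and 0 higher after PTH than after vehicle, where 6.14% of all genes tested were lower and 8.74% higher (14.9% in either direction). There were 15 PTH and 15 vehicle libraries, from 8 mice each with both limbs counted. Il2rb, the receptor chain through which interleukins 2 and 15 act on NK and memory T cells, ranged from 0.63 to 5.02 in the PTH libraries (median 2.64) and from 3.00 to 5.12 in the vehicle libraries (median 4.25). The ranges overlapped, and the PTH median lay below the lowest vehicle library. The difference was -1.45 ± 0.28 (adjusted p = 0.00157). Il2rb also differed between left and right limbs here (1.08 ± 0.28, unadjusted p = 0.00046 by limma), without passing after adjustment. PTH libraries read 2.19 to 5.02 in left and 0.63 to 2.64 in right limbs. Vehicle libraries read 3.00 to 5.12 and 3.00 to 4.74.

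Nkg7 ranged from 1.96 to 5.56 (median 5.02) after PTH and from 4.59 to 6.54 (median 5.46) after vehicle, a difference of -1.08 ± 0.32 (adjusted p = 0.0217). Lat ranged from 0.78 to 5.90 (median 3.22) and from 3.21 to 4.74 (median 3.78), a difference of -0.99 ± 0.32 (adjusted p = 0.0339). In GRCm38 Il2rb lies on chromosome 15 (78479256 to 78495271, - strand), Nkg7 on chromosome 7 (43437073 to 43438249, + strand) and Lat on chromosome 7 (126363824 to 126369570, - strand). For Nkg7 and Lat the groups overlapped and the lowest values were all from PTH libraries. Among the rest, Cd3d did not pass, with 0 to 5.96 (median 1.90) after PTH and 0 to 3.11 (median 2.06) after vehicle. The median difference was -0.50 over the 21 members and 0.02 over all genes tested, and 4 of the 21 were positive. edgeR on the recovered reads called 1 member, and 0 passed in left limbs alone.

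The highest PTH value of Il2rb and Lat came from the same library, the left limb of replicate 16, which stands apart. Without it 6 members were lower and 0 higher, of which Tbx21 had not been tested with it. The share of all genes called in that fit is not given here. Il2rb then differed by -1.58 ± 0.27 (adjusted p = 0.000451), Lat by -1.21 ± 0.28 (adjusted p = 0.00355) and Nkg7 by -1.18 ± 0.32 (adjusted p = 0.0107). The further 3 were Lck, the kinase that starts receptor signalling (-1.28 ± 0.33, adjusted p = 0.00751), Cd4 (-1.19 ± 0.33, adjusted p = 0.0123) and Tbx21, the transcription factor T-bet of type 1 helper and NK cells (-1.11 ± 0.33, adjusted p = 0.0183). Lck was then at 0 in 4 of 14 PTH libraries and ranged up to 2.90, against 1.48 to 3.54 in vehicle. Tbx21 was at 0 in 8 of the 14 PTH libraries and in 2 of the 15 vehicle libraries.

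Of the 35 tested genes of a further list of T and NK cell genes, 6 were lower and 0 higher in the same comparison. They included Fyb, an adaptor of T cells and platelets (-0.85 ± 0.17), Stat4, the transducer of interleukin 12 (-1.36 ± 0.32), and Ltb, a ligand of lymphoid organ formation (-1.29 ± 0.39).

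Summed over the 36 members, the PTH libraries ranged from 44.6 to 1065 CPM (median 135) and the vehicle libraries from 126 to 267 CPM (median 231). Without the library that stands apart, the PTH median was 117 CPM and the highest 217 CPM. Markers of other cells moved beside it. The neutrophil list had a median of 22136 CPM after PTH and 38199 after vehicle, the erythroid list 1928 and 2854, and the B cell list 299.5 and 333. The chondrocyte list had 39604 CPM after PTH and 14442 after vehicle. The part of these lists in the fall of the T and NK cell genes was not tested.

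**Figure D3:**
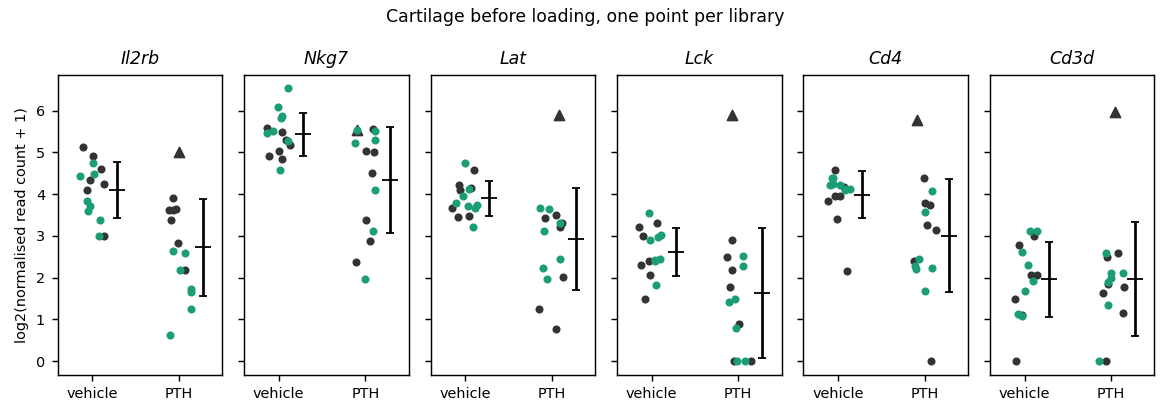
Level of Il2rb, Nkg7, Lat and other members as log2(normalised read count + 1) in each cartilage library before loading, PTH against vehicle, with mean and SD, and a triangle for the library that stands apart. PTH libraries reach lower values than any vehicle library for Il2rb, Nkg7 and Lat, while the groups overlap for every gene shown.

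In the other tissues before loading, 0 members passed the test of PTH against vehicle by limma or edgeR. In cortical bone (9 against 7 libraries) 1 of 26 had an unadjusted p under 0.05, with 0.00759% of all genes called, and the smallest p was that of Cd5, an inhibitory receptor of T cells (-1.18 ± 0.43). In cancellous bone (8 against 7 libraries) it was 1 of 24, with 0% of all genes called, and the smallest p was that of Il2rb (1.02 ± 0.43). In lymph node (16 against 16 libraries) it was 4 of 35, with 0.789% of all genes called. There Prf1 ranged from 0 to 3.78 (median 1.97) after PTH and from 0 to 4.03 (median 3.2) after vehicle, with a difference of -0.84 ± 0.33 (adjusted p = 0.194). The 35 nodal differences lay between -0.84 and 0.30, with a median of -0.02 against 0.01 over all genes tested. Summed levels in the node were 2579 to 3637 CPM (median 3173) after PTH and 2053 to 3569 CPM (median 3384) after vehicle, and they overlapped over nearly their whole range. Left and right limbs before loading differed for 0 members in every tissue by limma, with at most 2 at an unadjusted p under 0.05 and 0% of all genes called.

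T and NK cell genes were lower in loaded than in contralateral cartilage of PTH mice at 2 weeks, a difference that rests in part on 3 libraries that stand apart. Of 35 tested members 6 were lower and 0 higher in 8 loaded against 8 contralateral libraries, where 1.28% of all genes were lower (4.71% in either direction), and edgeR called 13. The median difference was -1.34 over the members and -0.07 over all genes tested, with 1 of 35 positive. Il2rb ranged from 0 to 4.33 (median 2.76) in loaded and from 4.18 to 7.71 (median 4.50) in contralateral limbs, and differed by -2.78 ± 0.56 (adjusted p = 0.000777). Cd3d was at 0 in 4 loaded libraries and ranged up to 2.83, against 2.67 to 7.98 (median 3.67), a difference of -3.32 ± 0.71 (adjusted p = 0.00189). In both genes only the edges of the ranges overlapped.

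The other members that fell were Cd4 (-2.13 ± 0.57, adjusted p = 0.0159), Cd247, the zeta chain of the receptor (-2.20 ± 0.61, adjusted p = 0.0212), Ncr1 (-1.71 ± 0.52, adjusted p = 0.039) and Cd8a, the alpha chain of CD8 (-2.28 ± 0.69, adjusted p = 0.0408). Ncr1 was at 0 in 5 of 8 loaded and 0 of 8 contralateral libraries. Of the 3 among these 16 libraries that stand apart, 2 are contralateral and hold the highest values of the group, with summed member levels of 3006 and 3037 CPM. Without the 3 libraries, 2 members were lower. Il2rb then ranged from 0 to 4.33 against 4.18 to 5.36 (-1.79 ± 0.55, adjusted p = 0.0346), and Nkg7 from 0.98 to 6.56 against 6.34 to 7.05 (-1.74 ± 0.52, adjusted p = 0.0323). Cd3d then ranged from 0 to 2.83 (median 1.42) against 2.67 to 4.25 (median 3.46) and did not pass. The interaction of loading and PTH, which tests whether PTH and vehicle mice differed in this, called 0 of 35 members by limma (7 at an unadjusted p under 0.05, 0% of all genes called).

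In vehicle mice loading changed 0 members of cartilage by limma or edgeR at either time. At 1 week 0 of 33 had an unadjusted p under 0.05 and 1.32% of all genes were called, and at 2 weeks these were 1 of 35 and 1.37%. The member of smallest p at 1 week was Zap70 (-1.46 ± 0.77), and at 2 weeks Cd3g (-1.27 ± 0.59). The members' median was -0.38 at 1 week (all genes -0.04) and -0.18 at 2 weeks (all genes 0.00). In PTH-alendronate mice at 1 week 2 of 33 were lower after loading, where 3.25% of all genes were (10.4% in either direction). Klrb1c, the NK1.1 receptor of NK cells, was at 0 in 4 of 7 loaded libraries and ranged from 1.43 to 5.05 in the 6 contralateral ones (-2.25 ± 0.69, adjusted p = 0.0239). Gata3, the transcription factor of type 2 helper cells, ranged from 0 to 2.02 and from 0 to 6.57 (-2.25 ± 0.75, adjusted p = 0.0421). Without the contralateral library that stands apart, 0 members passed there. Loading in PTH mice at 1 week called 0 of 33 members (0 at an unadjusted p under 0.05, 3.07% of all genes called), in alendronate mice at 1 week 0 of 33 (3 unadjusted, 6.5% called) and in PTH-alendronate mice at 2 weeks 0 of 35 (3 unadjusted, 0.593% called), all by limma.

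Treatments of the loaded cartilage gave few calls. At 1 week PTH against vehicle called 0 of 33 members by limma or edgeR (0 at an unadjusted p under 0.05, 0% of all genes), and alendronate 0 of 33 (1 unadjusted, 0.00678% of all genes), with Nkg7 of smallest p (-0.70 ± 0.33). At 2 weeks PTH called 0 of 35 by either tool (4 unadjusted, 0% of all genes), with Il2rb of smallest p (-1.75 ± 0.56). At 2 weeks 1 of 35 members was lower in alendronate than in vehicle mice, where 5.69% of all genes were lower (10.5% in either direction). Alendronate and the code series cannot be told apart there. Gzma was at 0 in 4 of the 5 loaded alendronate libraries and at 1.58 in the other, against 1.8 to 3.95 (median 3.52) in the 8 vehicle libraries. The groups did not overlap, and the difference was -2.88 ± 0.71 (adjusted p = 0.00665). Without the libraries that stand apart 3 members were lower, and without replicate 4 of the alendronate group 2 were. Both counts come without a share of all genes, so they are not shown to be particular to the members. The further members of the 3 were Zap70 (-1.56 ± 0.50), at 0 in all 5 alendronate libraries, and Cd2, an adhesion receptor (-1.78 ± 0.59). Cxcr3, a chemokine receptor of activated T cells on the further list, was lower as well (-1.99 ± 0.65).

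Lef1, a transcription factor of naive T cells that osteoblasts and chondrocytes also make, was the 1 member that rose with loading in cartilage in any of the treatments at either time. In alendronate mice at 2 weeks it read 3.06, 3.69, 3.92, 3.94 and 4.05 in the loaded limbs and 0 to 3.02 (median 1.12) in the contralateral ones, without overlap. The difference was 2.43 ± 0.77 (adjusted p = 0.0452), where 3.85% of all genes were higher (6.22% in either direction). The same contralateral libraries were below those of vehicle mice (2.73 to 4.02, median 3.70), a difference of -2.27 ± 0.69 (adjusted p = 0.0352), where 3.9% of all genes were lower (6.18% in either direction). These comparisons share the 6 contralateral alendronate libraries. edgeR called 0 members in either of them. In cartilage and lymph node at 2 weeks every alendronate and PTH-alendronate library bears a sample code of another series than the vehicle libraries. Neither treatment can be told apart from the code series there.

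The summed level of the members was lower in the loaded than in the contralateral limb across treatments in cartilage and cortical bone. Between group medians, over groups with at least 3 libraries and without those that stand apart, the loaded limb was lower in 8 of 8 treatment groups of cartilage (0.483 to 0.993 of the contralateral median) and in 7 of 7 of cortical bone (0.608 to 0.923). It was lower in 3 of 6 groups of cancellous bone (0.769 to 1.16) and in 1 of 8 of lymph node (0.938 to 1.13). In cortical bone of PTH mice at 2 weeks the sums were 135 to 181 CPM (median 157) in loaded and 184 to 415 CPM (median 259) in contralateral limbs, without overlap. In cartilage the medians were 138 and 264 CPM in PTH mice at 2 weeks, 119 and 246 CPM in alendronate mice, and 269 and 271 CPM in vehicle mice. These ratios are a description with no test. The sums weigh the most abundant members most. In cartilage the highest medians were those of Nkg7 (56.1 CPM), Il7r (19.9), Cd4 (14.8), Lat (13.3) and Il2rb (12.2). The medians of Cd3e, Cd3g, Cd8a and Cd8b1 there were 0.536 to 1.4 CPM. The same genes were the highest in cortical bone, from Il2rb at 15.4 to Nkg7 at 35.5 CPM. Whether the members were lower as a set was not tested.

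Lists of other cells moved with these sums. In cartilage the neutrophil list was lower in the loaded limb in 8 of 8 groups (median ratio 0.464), the erythroid list in 8 of 8 (0.479), the adipocyte list in 8 of 8 (0.357) and the B cell list in 6 of 8 (0.749), while the osteoblast and osteocyte list was lower in 0 of 8 (3.33). The further T and NK cell genes were lower in 3 of 8 (1.08). In cortical bone the neutrophil list was lower in 7 of 7 (0.805), the B cell list in 7 of 7 (0.768) and the chondrocyte list in 0 of 7 (1.52). Their part in the lower sums was not tested.

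**Figure D4:**
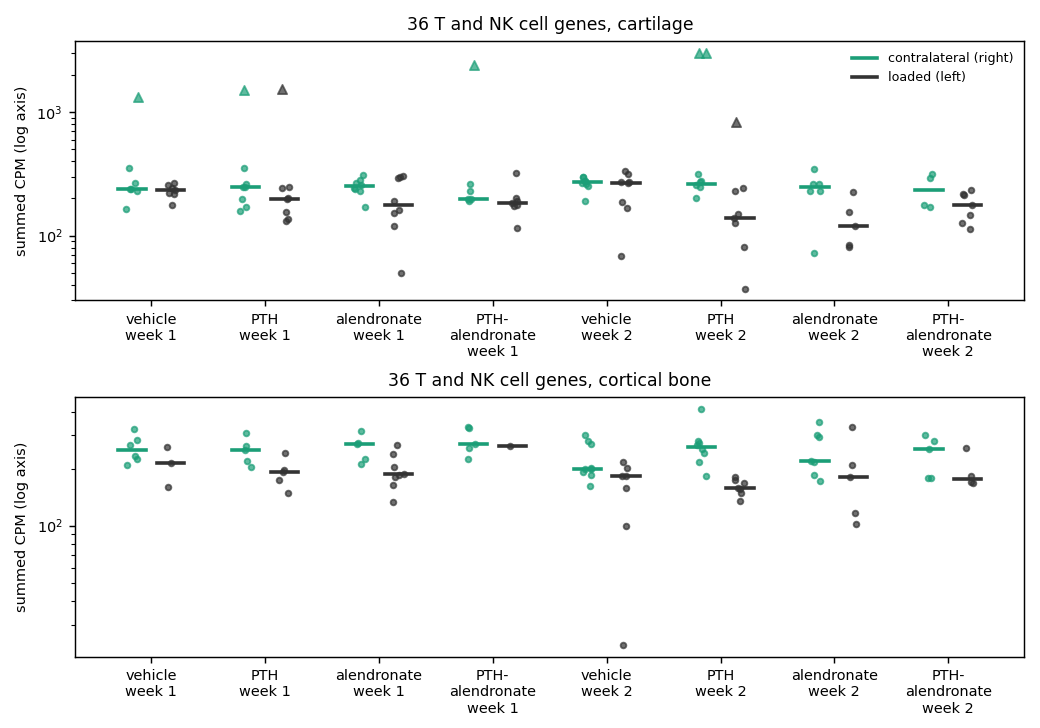
Summed level of the members (CPM, log axis) in loaded and contralateral limbs by tissue, week and treatment, with 1 point per library, triangles for libraries that stand apart and lines at medians without them. The loaded median is the lower of each pair in cartilage and cortical bone, in 8 of 8 and 7 of 7 groups with at least 3 libraries.

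Gene by gene, 0 members passed in cortical bone by limma or edgeR for loading in vehicle mice or for PTH or alendronate in the loaded limb. Loading in vehicle mice gave 2 of 32 at an unadjusted p under 0.05 at 1 week (0.133% of all genes called) and 5 of 33 at 2 weeks (0%). The smallest p at 1 week was that of Lef1 (-1.60 ± 0.63, 3 against 6 libraries) and at 2 weeks that of Lck (-1.47 ± 0.49, 7 against 9). At 2 weeks the loaded limbs of PTH and alendronate mice gave 3 and 7 of 33 unadjusted against vehicle, each with 0.00658% of all genes called. Bcl11b was of smallest p under PTH (1.7 ± 0.55, adjusted p = 0.109) and Cd2 under alendronate (1.49 ± 0.56, adjusted p = 0.227). At 1 week the same comparisons gave 1 of 32 each (0% called), Cd5 being of smallest p in both (-1.04 ± 0.38 and -0.92 ± 0.38). The 2 share the same 3 vehicle libraries.

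Cancellous bone likewise gave 0 called members by limma or edgeR in the same comparisons. At 1 week loading in vehicle mice (3 against 3 libraries) had 31 of 33 members positive and 4 at an unadjusted p under 0.05 (0% of all genes called), with Cd6, a co-receptor of T cells, of smallest p (1.34 ± 0.48). The loaded vehicle group there includes the library that stands apart, and without it 2 libraries remained, too few for a test. The median difference of the members was 0.84 for loading, -0.83 for PTH and -0.81 for alendronate in the loaded limb, and all 3 rest on those vehicle libraries. At 2 weeks loading gave 2 of 33 unadjusted (0% called), PTH 3 of 33 (0.00671% called) and alendronate 2 of 33 (0% called). Ifng was of smallest p for loading (0.97 ± 0.35), Cd3d for PTH (-2.20 ± 0.78) and Lat for alendronate (-1.15 ± 0.48).

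In the lymph node at 1 week, 0 of 36 members passed for loading in vehicle mice (6 against 4 libraries, 0% of all genes called, 0 by edgeR), although 26 had an unadjusted p under 0.05 and 33 were positive. Cd3d read 8.34 to 9.25 (median 8.86) in the loaded side and 5.21, 8.34, 8.52 and 8.89 in the contralateral side. The value of 5.21 is from the library that stands apart. Zap70 differed by 1.46 ± 0.42 (adjusted p = 0.13) with that library and by 0.31 ± 0.23 without it. The members' median was 0.85 with it and 0.08 without it, where 0 members had an unadjusted p under 0.05. Leaving out any of the other 3 contralateral libraries instead gave 11, 11 and 12 members higher. Those fits keep the library that stands apart, and their counts come without a share of all genes. The same library underlay the 3 of 36 members higher in the contralateral node of PTH-alendronate mice (0.389% of all genes higher, 1.01% in either direction). There Cd3d differed by 1.43 ± 0.34 (adjusted p = 0.0384) with it and by 0.58 ± 0.19 (adjusted p = 0.299) without it. PTH and alendronate in the loaded side called 0 of 36 members each by limma or edgeR (2 and 1 unadjusted, 0% of all genes), with Klrb1c (0.80 ± 0.33) and Ctla4 (-0.94 ± 0.44) of smallest p.

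At 2 weeks members differed in both directions between alendronate and vehicle mice in the node of the loaded side. As in cartilage, the alendronate libraries bear sample codes of another series, so alendronate and the code series cannot be told apart. In 8 alendronate against 7 vehicle libraries, 3 of 36 were higher and 7 lower, where 9.59% of all genes were higher and 19.4% lower (29% in either direction). The share of members called was thus close to that of all genes. Genes of neighbouring CD3 chains moved apart: Cd3d fell and Cd3g, which lies head to head with it on chromosome 9, rose, while Lck fell and Prf1 rose. The promoters of these 4 genes are shown because their calls differ in direction. They are RefSeq windows of GRCm38.p6, from 250 bases before to 50 after a transcript start, at chr9:44981536-44981835 (Cd3d, + strand), chr9:44980382-44980681 (Cd3g, - strand), chr4:129573592-129573891 and chr4:129558323-129558622 (the upstream and downstream starts of Lck, - strand) and chr10:61297586-61297885 (Prf1, + strand). Capitals mark matches on either strand to the ETS motif CAGGAA, the RUNX motif TGTGGT and the TCF/LEF motif CTTTGA, named for families of transcription factors active in T cells.
Cd3d: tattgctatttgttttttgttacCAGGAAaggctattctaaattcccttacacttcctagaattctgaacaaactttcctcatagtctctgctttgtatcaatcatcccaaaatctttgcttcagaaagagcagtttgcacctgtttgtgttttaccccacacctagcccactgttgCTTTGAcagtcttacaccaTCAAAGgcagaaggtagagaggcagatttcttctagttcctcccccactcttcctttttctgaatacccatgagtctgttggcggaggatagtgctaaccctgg
Cd3g: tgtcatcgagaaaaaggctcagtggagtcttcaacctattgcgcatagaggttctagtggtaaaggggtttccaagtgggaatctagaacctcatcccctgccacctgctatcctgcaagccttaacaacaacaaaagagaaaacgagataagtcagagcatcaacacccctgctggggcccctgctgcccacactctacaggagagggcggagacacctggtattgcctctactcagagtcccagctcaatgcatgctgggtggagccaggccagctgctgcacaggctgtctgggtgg
Lck, upstream start: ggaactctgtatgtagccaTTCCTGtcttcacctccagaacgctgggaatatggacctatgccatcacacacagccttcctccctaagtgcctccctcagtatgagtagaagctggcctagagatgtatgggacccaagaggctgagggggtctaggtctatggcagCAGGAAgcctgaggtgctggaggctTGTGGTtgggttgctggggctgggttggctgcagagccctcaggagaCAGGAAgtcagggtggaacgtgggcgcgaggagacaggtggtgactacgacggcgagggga
Lck, downstream start: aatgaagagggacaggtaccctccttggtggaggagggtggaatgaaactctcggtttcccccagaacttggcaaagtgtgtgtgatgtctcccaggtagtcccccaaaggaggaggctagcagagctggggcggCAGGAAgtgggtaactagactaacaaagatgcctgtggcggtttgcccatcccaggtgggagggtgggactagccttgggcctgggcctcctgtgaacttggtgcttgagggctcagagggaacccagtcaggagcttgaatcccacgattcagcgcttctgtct
Prf1: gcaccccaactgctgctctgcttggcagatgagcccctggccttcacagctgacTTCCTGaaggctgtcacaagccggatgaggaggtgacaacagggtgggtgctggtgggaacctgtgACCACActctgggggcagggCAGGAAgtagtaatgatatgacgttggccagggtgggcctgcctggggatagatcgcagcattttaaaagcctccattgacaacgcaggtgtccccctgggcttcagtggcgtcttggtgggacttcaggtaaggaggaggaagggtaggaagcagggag

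Cd3d held 1 ETS and 2 TCF/LEF matches and Cd3g 0 of any. The upstream window of Lck held 3 ETS and 1 RUNX matches, its downstream window 1 ETS match, and Prf1 2 ETS and 1 RUNX matches. Promoter windows were found for 26 of the 36 members, 35 windows in all, of which 17 held the ETS motif, 11 the RUNX motif and 6 the TCF/LEF motif. Among all 32851 windows of the table, 30.6% held the ETS, 16.8% the RUNX and 16.0% the TCF/LEF motif. A match is a run of letters, not a binding site.

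Lck ranged from 7.20 to 8.79 (median 8.58) in the alendronate and from 9.01 to 10.48 (median 9.41) in the vehicle libraries, without overlap, and differed by -1.13 ± 0.21 (adjusted p = 7.8e-05). Cd3d ranged from 7.36 to 8.81 (median 8.18) and from 8.75 to 10.19 (median 9.10), overlapping at the edge (-0.997 ± 0.283, adjusted p = 0.00632). Cd3g ranged from 6.02 to 8.07 (median 6.42) and from 4.51 to 6.29 (median 6.06), a difference of 0.73 ± 0.23 (adjusted p = 0.0135). The other CD3 genes did not pass, with Cd3e at -0.37 ± 0.19 (adjusted p = 0.137) and Cd247 at -0.24 ± 0.19 (adjusted p = 0.354).

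Among receptors and adhesion molecules, Cd2 was lower (-0.87 ± 0.21, adjusted p = 0.00145), as was Cd6 (-1.66 ± 0.46, adjusted p = 0.00479), which was at 0 in 1 alendronate library. Zap70 was lower (-1.43 ± 0.50, adjusted p = 0.0267), also with 1 library at 0, and Cd8b1 was lower (-0.59 ± 0.23, adjusted p = 0.046). Cytotoxic genes split. Nkg7 was lower, at 4.19 to 7.69 (median 7.38) against 7.63 to 9.20 (median 8.05), by -1.10 ± 0.31 (adjusted p = 0.00546). Prf1 was higher, at 2.21 to 5.15 (median 3.10) against 0 to 2.94 (median 0.86), by 1.98 ± 0.43 (adjusted p = 0.000458). This gene lay near the floor: over 133 lymph node libraries its median was 1.33 CPM, and 24 were at 0. The difference is thus one of a few reads per library. Eomes, a transcription factor of memory cytotoxic T cells and NK cells, was higher at 5.15 to 6.36 (median 5.63) against 4.56 to 5.36 (median 4.96), by 0.68 ± 0.27 (adjusted p = 0.0464).

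In the alendronate group the lowest values of Lck and Cd3d and the highest of Cd3g and Prf1 came from its shallowest library, replicate 8, with 153802 reads. Without it Cd3g reached 6.55 and Prf1 3.27. With libraries of at least 500000 reads, 11 members were called, 6 higher and 5 lower. The share of all genes called in that fit is not given here, so the added calls are not shown to be particular to the members. Prf1 (1.71 ± 0.42), Cd3g (0.52 ± 0.20) and Eomes (0.76 ± 0.26) were again higher, joined by Tcf7, a transcription factor of naive and memory T cells (1.06 ± 0.31), Cd40lg (1.08 ± 0.30) and Gzmb (1.53 ± 0.48). Lck (-0.97 ± 0.20), Cd6 (-0.88 ± 0.21), Cd2 (-0.69 ± 0.19), Cd3d (-0.89 ± 0.28) and Nkg7 (-0.72 ± 0.23) were again lower, while Zap70 (-0.60 ± 0.27, adjusted p = 0.0739) and Cd8b1 no longer passed.

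Of 44 tested genes of the further T and NK cell list, 8 were higher and 14 lower. The 8 higher genes included Il18r1, a receptor chain for interleukin 18 (2.11 ± 0.32), Cxcr6, a homing receptor of resident T and NK cells (1.37 ± 0.29), and Gimap5, a survival factor of lymphocytes (0.74 ± 0.16). The 14 lower genes, the larger part, are not named here. Beside these changes the B cell list ranged from 2230 to 3086 CPM (median 2651) in the alendronate and from 3878 to 6144 CPM (median 4305) in the vehicle libraries, without overlap. The proliferation list had medians of 701 and 418 CPM, with overlap. Their part in the changes was not tested.

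**Figure D5:**
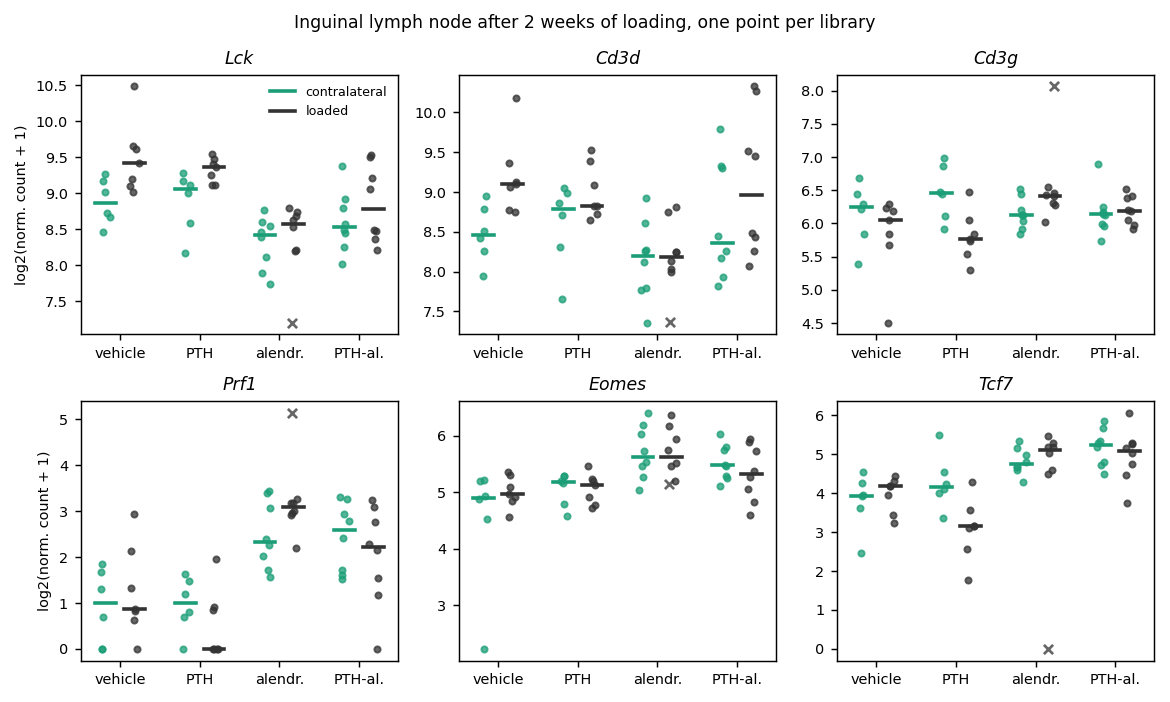
Level of members in lymph node at 2 weeks as log2(normalised read count + 1) by treatment and side, with 1 point per library, lines at medians and a cross for the library of 153802 reads. In the loaded side Lck lies lower in all 8 alendronate libraries than in any of the 7 vehicle libraries, while Prf1 and Eomes lie higher at their medians in alendronate than in vehicle libraries of both sides.

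Prf1 and Eomes were also higher in the contralateral node, 2 of 36 members where 5.45% of all genes were higher (9.59% in either direction). The alendronate and PTH-alendronate libraries bear sample codes of another series than the vehicle libraries, so treatment and series cannot be told apart. Eomes ranged from 5.04 to 6.41 (median 5.63) in 8 alendronate and from 2.23 to 5.22 (median 4.90) in 6 vehicle libraries (1.21 ± 0.28, adjusted p = 0.00249). Prf1 ranged from 1.58 to 3.45 (median 2.33) and from 0 to 1.84 (median 1.00), overlapping at the edge (1.57 ± 0.45, adjusted p = 0.0152). Lck there differed by -0.56 ± 0.22 and did not pass (adjusted p = 0.0989), but passed with libraries of at least 500000 reads (-0.56 ± 0.20, adjusted p = 0.0333). PTH-alendronate mice had 3 of 36 members higher against the same vehicle libraries, where 3.29% of all genes were higher (5.34% in either direction): Eomes (1.03 ± 0.28, adjusted p = 0.0165), Prf1 (1.53 ± 0.45, adjusted p = 0.0284) and Il7r, the interleukin 7 receptor of naive and memory T cells. Il7r ranged from 8.78 to 9.46 (median 9.25) against 7.15 to 8.67 (median 8.42), without overlap (0.98 ± 0.22, adjusted p = 0.00314). With libraries of at least 500000 reads the counts were 7 (6 higher, and Lck lower) and 8, and edgeR called 5 in each, all without a share of all genes beside them.

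Some nodal comparisons at 2 weeks had 0 members called by limma in all libraries of at least 100000 reads. In the loaded side of PTH-alendronate mice 6 of 36 had an unadjusted p under 0.05 (4.03% of all genes called), with Lck at -0.64 ± 0.21 (adjusted p = 0.0752) and Prf1 at 0.77 ± 0.43 (adjusted p = 0.398). With libraries of at least 500000 reads 2 passed there, Lck lower (-0.64 ± 0.19, adjusted p = 0.0178) and Tcf7 higher (1.01 ± 0.30, adjusted p = 0.019). Here too PTH-alendronate and the code series cannot be told apart. Loading in PTH mice gave 4 of 36 unadjusted (0% of all genes called), and with libraries of at least 500000 reads 2 passed, Tcf7 (-1.17 ± 0.30, adjusted p = 0.0215) and Cd3g (-0.66 ± 0.20, adjusted p = 0.0398), both lower in the loaded side. Loading in vehicle mice gave 7 of 36 unadjusted and 0 called by edgeR (0% of all genes called), with Cd3e of smallest p (0.69 ± 0.20) and 27 of 36 positive. PTH in the loaded side gave 2 of 36 unadjusted and 0 by edgeR (0% called), with Il7r of smallest p (-0.51 ± 0.22). The interaction of loading and alendronate called 0 of 36 by limma (6 unadjusted, 0% of all genes called), so a difference between the sides in the alendronate contrast was not shown.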

How the data were processed

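The deposited values are normalised read counts, handled here as a signal: within each library 100% of values were whole multiples of 1 step (tolerance 0.01), from which the authors' whole reads were recovered. Per the labels, RNA was extracted with RNeasy kits and sequenced as TruSeq 3' libraries. Per the submitters' processing notes, Trimmomatic 0.39, STAR and edgeR were used with mm10; whether counting used the strand is not given in the sources used here, and 4 members overlap another protein-coding gene. Of 549 samples described, 505 have a column in the 12 tables (4 tissues at 3 times), 44 are not analysed here and 0 columns went unused. Depth was 3630 to 3557793 reads (median 1552374), and 28 libraries under 100000 reads were left out. Low counts limit the precision of members in bone and cartilage, where a median library held 308.5 to 389 reads over all 36.

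limma 3.58.1 (R 4.3.3) was run on log2(value + 1) with a variance trend, all groups of a table in 1 fit, genes kept where the number of libraries at 1 CPM or more reached the size of the smallest group (3 or more libraries), the animal (inferred from title codes) as a random block (statmod 1.5.0, 2000 genes, correlation 0.0056 to 0.103), a limb term before loading and a code series term in bone after loading. Groups needed 3 libraries. Per the labels, samples were not pooled. Named were up to 8 called members of smallest p per comparison, with none called the members of smallest p, and up to 4 of the further T and NK cell list, of which 1 gene is not reported here. Alternatives were TMM scaling, edgeR 4.0.16 on recovered reads, pseudocounts of 0.25 and 8, no filter, all libraries, single limbs, no animal block, no code series term, a replicate block and leaving out each replicate of groups of up to 5. Leaving out libraries that stand apart (B cell list above 1000 CPM in skeletal tissue or below it in lymph node) or under 500000 reads was chosen after seeing the data. Members and lists were chosen with earlier results of these data known. Limbs that share a replicate number share an inferred animal in 28 of 29 cartilage pairs after 1 week and 24 of 24 after 2, 6 of 19 and 22 of 27 lymph node pairs, and 2 of 11 to 9 of 13 bone pairs; between treatments they are numbers only. Of 1327 pairs of libraries within groups 0 were identical. Gene positions are from GENCODE M21 and promoters from RefSeq, both on GRCm38. The code was tested on simulated data.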

Additional observations from a re-analysis of the deposited data

Results flagged for a closer look

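In 71 groups of 4 to 10 libraries, the summed level of the 36 genes was tested for a library far from the others of its group, and 12 were found, where chance gives about 1 in 20 groups. Of these, 7 are among the libraries that stand apart by their B cell genes. In cartilage they are the left limb of PTH replicate 16 before loading (1065 CPM), and at 1 week the contralateral limb of PTH-alendronate replicate 3 (2397 CPM), both limbs of PTH replicate 6 (1527 CPM loaded, 1497 CPM contralateral) and the contralateral limb of vehicle replicate 6 (1333 CPM). At 2 weeks it is the loaded limb of PTH replicate 6 (824 CPM). In lymph node it is the contralateral side of vehicle replicate 1 at 1 week (354 CPM), the lowest of its group.

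The other 5 do not stand apart by B cell genes. Cartilage of the loaded limb of PTH-alendronate replicate 4 at 1 week was the highest of its group (324 CPM), and that of the contralateral limb of vehicle replicate 7 at 2 weeks the lowest (190.1 CPM). In cortical bone at 2 weeks the loaded limb of PTH-alendronate replicate 3 (257 CPM) and the contralateral limb of PTH replicate 9 (415 CPM) were the highest. In lymph node before loading the left side of vehicle replicate 2 was the lowest (2053 CPM).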

How the results depend on the processing

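The 28 comparisons counted here are PTH before loading, and loading in vehicle mice, PTH and alendronate in the loaded limb at each time, in each tissue. The first count was 0 in 25 of the 28, so an unchanged count there means 0 against 0. Counts within 1.5 times the first value were taken as the same, and their directions were not compared. The count stayed the same in 28 of 28 comparisons under TMM scaling, a pseudocount of 8, no filter on low values and no animal block. It did so in 27 of 28 under edgeR and under a pseudocount of 0.25, and in 26 of 28 under the replicate block. For PTH in cartilage before loading (3 called), edgeR and the use of all libraries each called 1, left limbs alone 0, and 6 passed without the library that stands apart. For alendronate in loaded cartilage at 2 weeks (1 called), 2 passed at a pseudocount of 0.25, 3 without the libraries that stand apart and 0 with the replicate block, and leaving out each replicate gave 1 to 2. For alendronate in the lymph node at 2 weeks (10 called), 2 passed with the replicate block. The replicate block also moved PTH in cartilage before loading from 3 to 2 called, and left the other 25 of the 28 counts at 0. For loading in the vehicle lymph node at 1 week (0 called), leaving out each replicate gave 0 to 12. The sign turned for Klrd1 in cancellous bone before loading (-0.69 in right limbs only) and for Cd3e under PTH in cancellous bone at 1 week (0.22 with the replicate block). Outside the 28, edgeR called 13 members against 6 by limma for loading in cartilage of PTH mice at 2 weeks, 4 against 2 for loading in cartilage of PTH-alendronate mice at 1 week, and 5 against 2 (alendronate) and 5 against 3 (PTH-alendronate) in the contralateral node at 2 weeks. The causes were not tested. Leaving out a replicate gave no value where fewer than 3 libraries remained, and the PTH-alendronate loaded group of cortical and cancellous bone at 1 week had 1 library and no test. Genes at a few reads per library or fewer, such as Prf1 and Ifng in the skeleton and in the lymph node, cannot show small changes at this depth.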
